A study of Mus musculus with 12 samples.

Results

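Genes of synaptic vesicles and of transmitter release were followed in the cerebellum of SCA7 mice. The 65 genes were taken by name from the 7667 named genes of the deposited table: every synaptotagmin (Syt followed by a digit), syntaxin and syntaxin-binding gene, numbered Snap gene, Vamp, Sv2, Rab3-prefixed gene, Rims, complexin, Unc13, synaptogyrin and Nsf-prefixed gene, with Syn1, Syn2, Syn3 and Syp. The rule reads gene names alone, and it was set with earlier results of these data known. The prefix Rab3 also takes in 8 Rab genes that are not of the Rab3 family (Rab30, Rab31, Rab33a, Rab33b, Rab34, Rab35, Rab37 and Rab39b). With these, the syntaxins, SNAPs and VAMPs of general membrane traffic, the Rab3 regulators and Nsfl1c set aside, 41 genes of the release machinery remained.

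The groups were fxSCA7 92Q mice at 12 weeks, their wild-type littermates at 12 weeks, fxSCA7 92Q mice at 29 weeks and wild-type littermates at 29 weeks. fxSCA7 92Q is a mouse model of spinocerebellar ataxia type 7 that carries 92 CAG repeats. The labels describe its SCA7 repeat length and give no promoter or further allele. Each group had 3 libraries of total cerebellar RNA, and each library pooled 3 mice. The table holds 1 whole-number score per gene and group with no stated unit, so no spread between libraries, no test and no p-value can be given. "Higher" and "lower" below describe these 4 values only, and the depth behind them is unknown. Ratios are log2 ratios of (score + 1), 92Q over wild type or 29 over 12 weeks, and they understate the differences of low genes. The rounding of the scores moves such a ratio by up to 0.13 at a score of 10 and by up to 0.01 at a score of 100. Fewer cells of a type and less RNA per cell cannot be told apart in whole tissue.

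Transmitter release needs a vesicle SNARE (synaptobrevin, the Vamp genes) that zips together with a syntaxin and SNAP-25 on the plasma membrane. Munc13 (the Unc13 genes) and RIM prepare the vesicle, complexin holds the assembled complex, and a synaptotagmin triggers fusion when calcium enters. NSF then takes the SNAREs apart, while synapsins tether the reserve vesicles. In the cerebellum most synapses are those of granule cell parallel fibres on Purkinje cells, and Purkinje cells send inhibitory terminals to the deep nuclei.

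The RefSeq promoter table (GRCm38.p6, the assembly of mm10) had an entry for 49 of the 65 genes. Its windows run from 250 bases before to 50 bases after a listed start. The 3 windows below are those of the complexin pair, whose scores differed in opposite directions between the genotypes, and of Unc13c, which had the lowest 29-week ratio after Syt7. Capitals mark GC boxes (GGGCGG), the core of a cyclic AMP response element (TGACG) and an E-box (CAGCTG), searched on both strands, none of which overlap in these windows.
Cplx1: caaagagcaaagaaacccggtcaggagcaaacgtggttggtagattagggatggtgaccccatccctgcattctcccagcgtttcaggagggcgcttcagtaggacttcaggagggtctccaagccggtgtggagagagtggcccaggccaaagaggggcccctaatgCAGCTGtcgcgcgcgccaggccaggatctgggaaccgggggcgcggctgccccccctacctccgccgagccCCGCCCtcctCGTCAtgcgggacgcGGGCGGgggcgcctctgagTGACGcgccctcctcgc
Cplx2: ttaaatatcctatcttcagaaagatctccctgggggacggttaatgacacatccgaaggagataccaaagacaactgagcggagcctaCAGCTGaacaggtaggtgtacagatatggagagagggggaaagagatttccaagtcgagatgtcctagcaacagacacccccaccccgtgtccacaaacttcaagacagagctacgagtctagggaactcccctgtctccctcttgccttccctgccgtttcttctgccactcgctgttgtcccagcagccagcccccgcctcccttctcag
Unc13c: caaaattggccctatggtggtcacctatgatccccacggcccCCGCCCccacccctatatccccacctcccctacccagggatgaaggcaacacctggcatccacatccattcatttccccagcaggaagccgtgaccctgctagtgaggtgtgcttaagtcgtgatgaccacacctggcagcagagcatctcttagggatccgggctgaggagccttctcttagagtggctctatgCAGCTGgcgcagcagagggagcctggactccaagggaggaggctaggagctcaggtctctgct

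The Cplx1 window (chr5:108549978-108550277, minus strand) held 2 GC boxes, 2 TGACG matches and 1 E-box. The Cplx2 window (chr13:54302306-54302605, plus strand) held 1 E-box and no other match, and it lies before the GENCODE M21 start of Cplx2 at 54371349. The Unc13c window (chr9:73968988-73969287, minus strand) held 1 GC box and 1 E-box, and it lies before the GENCODE M21 start of Unc13c at 73968966. Of 32851 windows of 300 bases, 35.7% held a GC box, 20.8% a TGACG match and 16.3% the E-box, so each of these matches is common. GC content was 67.0% in the Cplx1 window, 53.3% in the Cplx2 window and 59.3% in the Unc13c window. A match is a description of letters and not a binding site.

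The tissue label was checked against marker lists. Of the 20 Purkinje cell markers 19 had a row and of the 18 granule cell markers 18. The Y-linked Ddx3y and Eif2s3y were listed at 0 in 12-week wild type and above 0 in the other groups. At 29 weeks Ddx3y was 11 in 92Q and 5 in wild type, and Eif2s3y was 15 in 92Q and 6 in wild type. Xist, the other measured sex-linked marker, was 30 in 92Q and 66 in wild type at 12 weeks. At 29 weeks Xist was 25 in 92Q and 63 in wild type. At both ages genotype and the sex of the pooled mice thus cannot be told apart. Syp and Syn1 are among the 4 of the 65 genes on the X chromosome. Sums over the cell type marker lists are given with the results at each age.

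At 12 weeks the release genes had nearly the same scores in 92Q and in wild type. Of the 41 release machinery genes, more were higher in 92Q than lower. Past 1.2-fold, 1 of the 65 genes was higher in 92Q, against 0.496% of the 7660 genes compared, and 0 were lower, against 1.48%. The 1 gene was Sv2c, a vesicle glycoprotein, at 10 in 92Q and 8 in wild type. Every row of the table reaches 10 in at least 1 group, and Sv2c did so in 12-week 92Q alone, which fixed its direction. At 1.1-fold, 4 genes were higher (background 4.23%) and 0 were lower (background 7.7%), and after upper quartile scaling 7 were higher (background 7.81%) and 0 lower (background 4.92%). Rims1, the gene of the active zone scaffold RIM1, was 1 of the 4 as deposited, at 90 in 92Q and 80 in wild type (log2 ratio 0.17). The other 3, Sv2c, Syngr2 and Stxbp2, had scores of 10 or less, and all 3 reached 10 in 92Q alone.

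The genes of the fusion complex had nearly equal scores in the 2 genotypes at this age. Snap25, the plasma membrane SNARE, was 1844 in 92Q and 1847 in wild type. Vamp2, synaptobrevin 2, was 652 in 92Q and 629 in wild type, and Syp, the vesicle protein synaptophysin, was 501 in 92Q and 493 in wild type. These differences were all below 1.1-fold. Syn1, synapsin I, was 186 in 92Q and 171 in wild type (0.12). The 41 release machinery genes had a median log2 ratio of 0.04, against 0.00 over all genes compared. That median was 0.06 after upper quartile scaling, where the median of all genes was 0.02. It was 0.06 after quantile normalization, where that of all genes was 0.00. As deposited, 28 of the 41 were higher in 92Q (68.3%) and 8 were lower (19.5%). Among all genes compared these shares were 32.1% and 36.7%. With ties broken by median ratio scaling, 80.5% of the 41 were higher, beside 63.3% of all genes. This split was not tested and not matched for score level. In the same comparison the Purkinje marker sum was 6228 in 92Q and 7809 in wild type, and the granule marker sum was 3699 in 92Q and 3582 in wild type. The choroid plexus sum was 20 in 92Q and 364 in wild type, with a median log2 ratio of -1.71 over 6 measured genes, on the opposite side to 29 weeks. The inhibitory interneuron sum was 536 in 92Q and 555 in wild type, and the microglia sum was 185 in 92Q and 182 in wild type. The astrocyte sum was 3753 in 92Q and 4029 in wild type, and the myelin sum was 3936 in 92Q and 4191 in wild type. The part of these cell type differences in the release gene ratios was not tested.

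**Figure D1:**
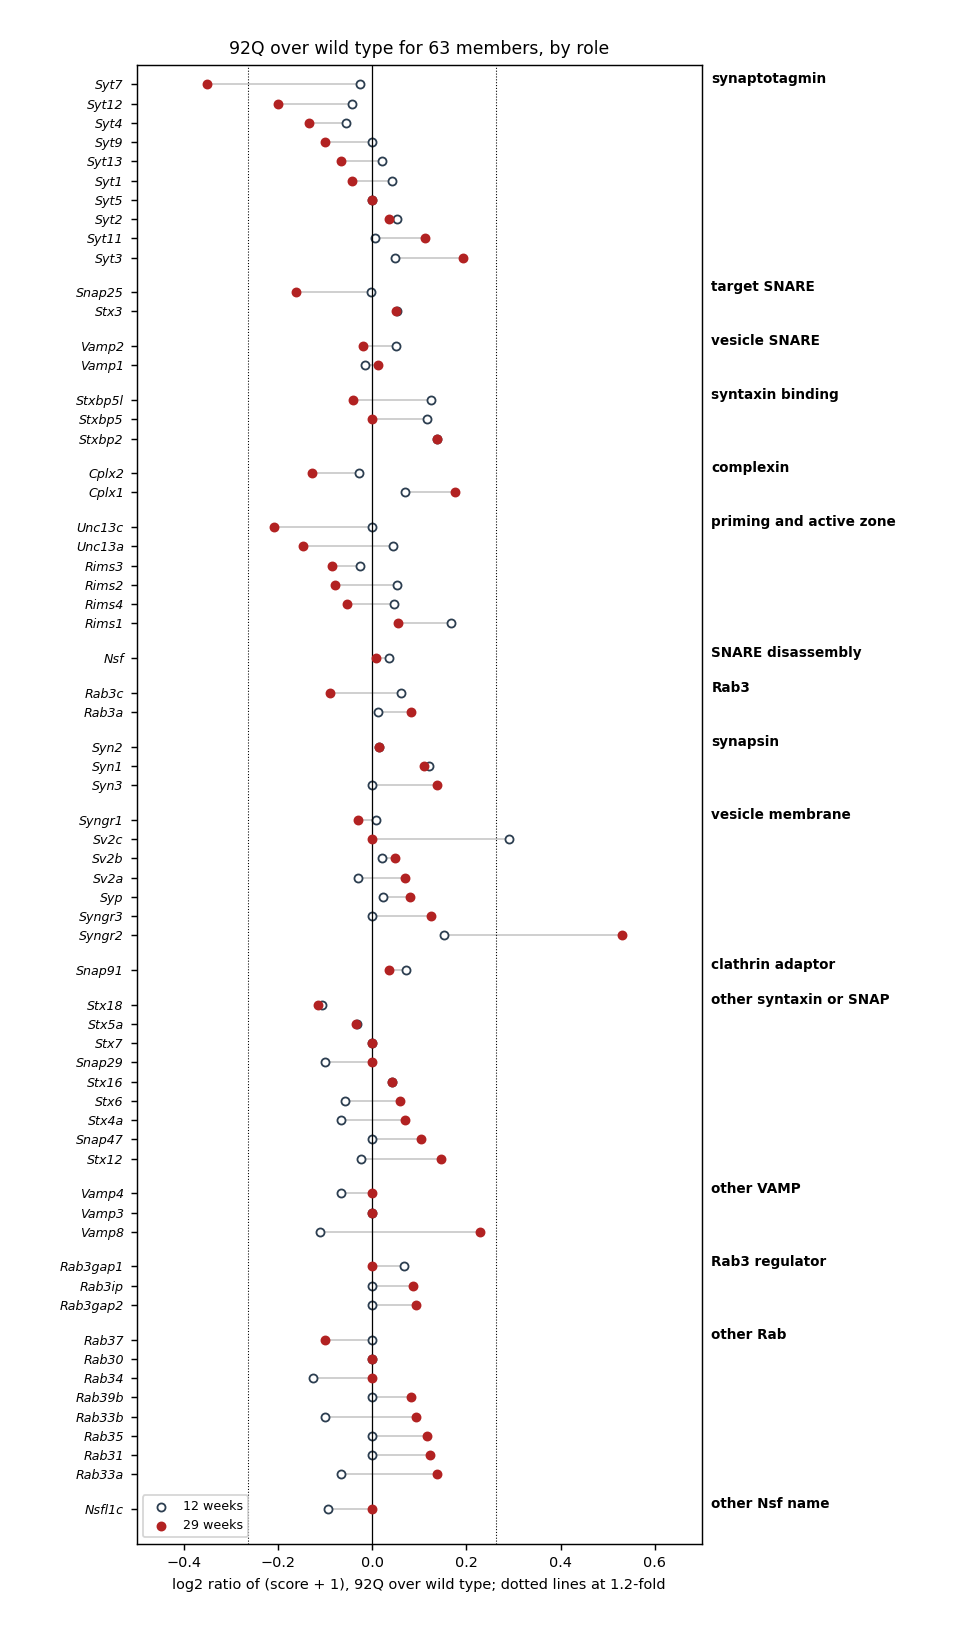
Log2 ratios of (score + 1), 92Q over wild type, for 63 of the 65 genes grouped by role (rows), with open points for 12 weeks and filled points for 29 weeks; each point is 1 pooled value per genotype and has no error. Most points lie between the dotted lines at 1.2-fold, and Syt7 at -0.35 is the only gene left of them.

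At 29 weeks Syt7 had the lowest ratio of the 65 genes. Syt7, the high-affinity synaptotagmin of facilitation and delayed release, was 90 in 92Q and 115 in wild type (log2 ratio -0.35, from -0.36 to -0.34 over the rounding range). At 12 weeks it had been 112 in 92Q and 114 in wild type. The 29-week 92Q score was thus low beside 3 scores between 112 and 115. Syt7 lies on chromosome 19 at 10389090 to 10453180 on the plus strand (mm10, GENCODE M21, protein-coding). It was the 1 gene at least 1.2-fold lower, against 3.01% of the 7666 genes compared.

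The 1 gene at least 1.2-fold higher at 29 weeks, against a background of 3.63%, was Syngr2, a synaptogyrin of many cell types. It was 12 in 92Q and 8 in wild type (0.53), and 9 in 92Q and 8 in wild type at 12 weeks. It reached the 10 that a row requires in that group alone, so its direction was fixed. Without the 4 genes that reached 10 in 92Q alone (Syngr2, Sv2c, Syn3 and Stxbp2), an alternative chosen after the values were seen, 0 genes were 1.2-fold higher at either age. Syngr2 was also the 1 release gene among the 99 genes of the authors' deposited table of selected genes. At 1.1-fold, 7 of the 65 were higher (background 14.5%) and 5 were lower (background 8.3%). Among the 7, Syngr2, Syn3 and Stxbp2 reached 10 in 92Q alone. After median ratio scaling the balance turned, with 4 higher (background 9.68%) and 8 lower (background 11.2%).

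**Figure D2:**
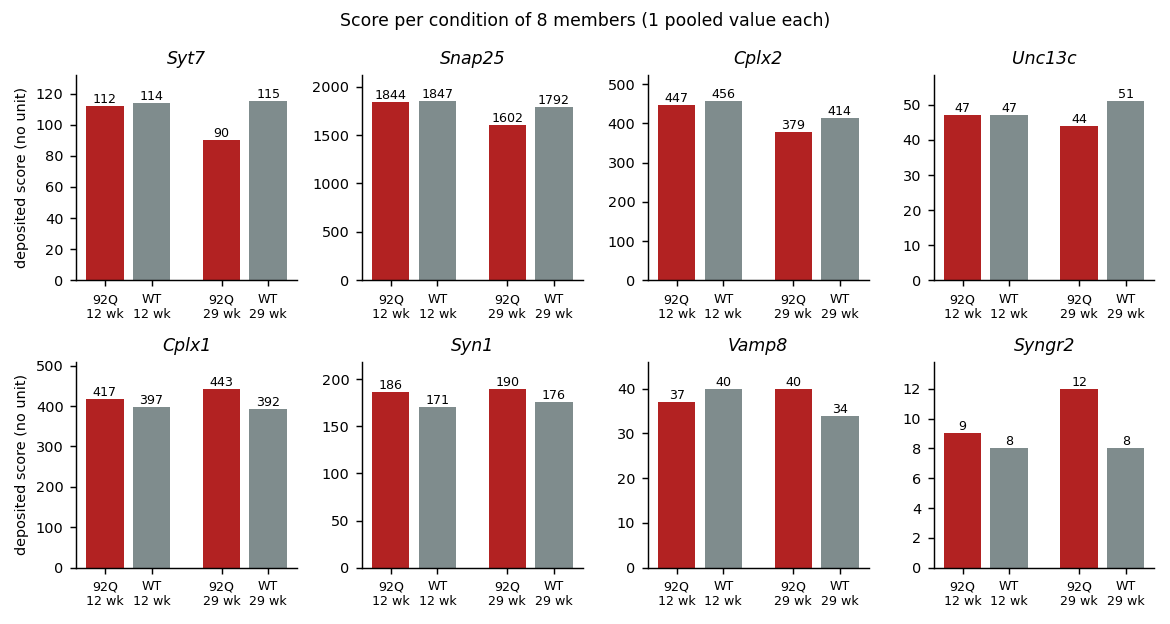
Deposited score of 8 genes (bars, 1 pooled value per condition, no error bar) in 92Q and wild type at 12 and at 29 weeks; each panel has its own axis, which starts at 0. Syt7 stands at 90 in 29-week 92Q and between 112 and 115 elsewhere, and Cplx1 and Cplx2 differ between the genotypes in opposite directions at 29 weeks.

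The other synaptotagmins spread to both sides of 0 at 29 weeks. Of the 10 measured, 6 were lower in 92Q, 3 were higher and 1 was equal. Over all genes compared at 29 weeks, 49.5% had a higher and 26.1% a lower rounded score in 92Q. After median ratio scaling 7 of the 10 were lower, beside 52.1% of all genes compared, and after upper quartile scaling 7 of 10 beside 50.6%. Syt12, which does not bind calcium, was 26 in 92Q and 30 in wild type at 29 weeks (-0.20), and 32 in 92Q and 33 in wild type at 12 weeks. Syt4 was 122 in 92Q and 134 in wild type at 29 weeks (-0.13). Syt3, a calcium-binding synaptotagmin, lay on the other side, at 31 in 92Q and 27 in wild type (0.19). Syt11, a relative of Syt4 that does not bind calcium, was 226 in 92Q and 209 in wild type at 29 weeks and 217 in 92Q and 216 in wild type at 12 weeks. The fast sensors of synchronous release differed little: Syt1 was 165 in 92Q and 170 in wild type, and Syt2 was 83 in 92Q and 81 in wild type.

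Snap25 differed more between the genotypes than the vesicle SNARE Vamp2 did at 29 weeks. Snap25 was 1602 in 92Q and 1792 in wild type (-0.16). Vamp2 was 637 in 92Q and 646 in wild type (-0.02). The score of Snap25 in 29-week 92Q was the lowest of its 4 and the other 3 lay between 1792 and 1847. Vamp1, synaptobrevin 1, was 222 in 92Q and 220 in wild type at 29 weeks, above its 12-week scores of 193 in 92Q and 195 in wild type. Snap25 lies on chromosome 2 at 136713453 to 136782428 on the plus strand.

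The priming and active zone genes were mostly lower in 92Q at 29 weeks, in 5 of 6 members, while 4 of the 6 had been higher at 12 weeks, when 32.1% of all genes compared had a higher and 36.7% a lower rounded score in 92Q. At 29 weeks 26.1% of all genes compared were lower. Among the genes counted, Unc13a and Rims4 at 12 weeks and Rims4 at 29 weeks differed by no more than rounding allows. Equal rounded scores weigh on these shares: after median ratio scaling, which breaks the ties, 5 of the 6 were higher at 12 weeks, beside 63.3% of all genes, and 5 of the 6 lower at 29 weeks, beside 52.1%. Unc13c, the gene of Munc13-3 in granule cells, was 44 in 92Q and 51 in wild type at 29 weeks (-0.21), and 47 in both at 12 weeks. Unc13a, which encodes Munc13-1, was 27 in 92Q and 30 in wild type at 29 weeks (-0.15), and 32 in 92Q and 31 in wild type at 12 weeks. Rims1 was the exception, at 80 in 92Q and 77 in wild type. None of the 6 reached 1.2-fold at either age, and Unc13c and Unc13a were the 2 past 1.1-fold at 29 weeks. Nsf, the SNARE-separating ATPase, was 167 in 92Q and 166 in wild type at 29 weeks, and 161 in 92Q and 157 in wild type at 12 weeks.

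The 2 measured complexins went opposite ways. Cplx2 was 379 in 92Q and 414 in wild type at 29 weeks (-0.13), and 447 in 92Q and 456 in wild type at 12 weeks. Cplx1 was 443 in 92Q and 392 in wild type at 29 weeks (0.18), and 417 in 92Q and 397 in wild type at 12 weeks. Gene length cancels when a ratio of 2 genes is compared between groups. The log2 ratio of Cplx1 over Cplx2 was 0.22 in 92Q and -0.08 in wild type at 29 weeks, a difference of 0.30, and -0.10 in 92Q and -0.20 in wild type at 12 weeks, a difference of 0.10. A scaling of a column acts on both genes alike. Cplx1 lies on chromosome 5 at 108518554 to 108550024 on the minus strand, and Cplx2 on chromosome 13 at 54371349 to 54383917 on the plus strand.

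The same reading of other pairs gave smaller and larger shifts. Of the 12 pairs taken, the pair with the largest shift was Syt3 over Syt7, whose log2 ratio was -1.51 in 92Q and -2.05 in wild type at 29 weeks, a difference of 0.54. Syt7 over Syt1 was -0.87 in 92Q and -0.56 in wild type, a difference of -0.31. Snap47, a SNAP-25 relative of many membranes, over Snap25 was -3.22 in 92Q and -3.49 in wild type, a difference of 0.27. Vamp1 over Vamp2 differed by 0.03 between the genotypes and Sv2a over Sv2b by 0.02. These pairs were listed after the scores had been seen and are descriptions only.

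Of the 7 vesicle membrane genes 5 had a higher score in 92Q at 29 weeks, 1 was equal and 1 was lower, and the 3 synapsins were higher, where 49.5% of all genes compared were. Syngr1, a synaptogyrin of neurons, was the lower one, at 183 in 92Q and 187 in wild type. Among the higher ones, Syngr2 and Syn3 reached 10 in 29-week 92Q alone and could have no other direction. Syp was 493 in 92Q and 466 in wild type (0.08), and Sv2a was 149 in 92Q and 142 in wild type. Syn1 was 190 in 92Q and 176 in wild type (0.11), much as at 12 weeks. Syn2 was 99 in 92Q and 98 in wild type at 29 weeks, within rounding. Syn3 was 10 in 92Q and 9 in wild type at 29 weeks and 8 in both at 12 weeks, within rounding. Rab3a, the main vesicle GTPase of brain, was 450 in 92Q and 425 in wild type at 29 weeks and 434 in 92Q and 430 in wild type at 12 weeks, while its relative Rab3c was 61 in 92Q and 65 in wild type. Snap91, which encodes the clathrin adaptor AP180, was 82 in 92Q and 80 in wild type at 29 weeks and 81 in 92Q and 77 in wild type at 12 weeks.

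The 24 genes of general traffic taken in by their names stayed within 1.2-fold of wild type at both ages. So did most genes compared. Past 1.2-fold, 0.496% of them were higher and 1.48% lower at 12 weeks, and 3.63% higher and 3.01% lower at 29 weeks. Vamp8, endobrevin of endosomes, had the largest difference between the ages among them. It was 40 in 92Q and 34 in wild type at 29 weeks (0.23), and 37 in 92Q and 40 in wild type at 12 weeks (-0.11). Snap47 was 171 in 92Q and 159 in wild type at 29 weeks and 163 in both at 12 weeks. Rab35, a Rab of endocytic recycling, was 51 in 92Q and 47 in wild type at 29 weeks and 49 in both at 12 weeks. At 29 weeks 92Q scores exceeded wild type in 5 of the 8 Rab genes outside the Rab3 family, by at most 0.14, and were below it in 1, which is near the shares of all genes compared (49.5% higher and 26.1% lower). Rab3gap1 was 21 in both genotypes at 29 weeks, and Nsfl1c, the p47 cofactor, was 14 in both.

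Over all 65 genes the median 29-week log2 ratio was 0.00, and so was that of all genes compared. The spread over genes was 0.12 (SD) for the 65 and 0.18 for all genes compared, and in the 12-week comparison 0.07 for the 65 and 0.17 for all. The SD of all genes takes in extremes, from -1.67 to 6.09 at 29 weeks and from -8.28 to 3.70 at 12 weeks. The quartiles at 29 weeks were -0.04 and 0.09 for the 65, and -0.02 and 0.10 for all genes. For the 41 release machinery genes they were -0.08 and 0.07. At 12 weeks the quartiles were -0.03 and 0.05 for the 65, and -0.06 and 0.05 for all. None of the 65 genes reached 1.5-fold in a comparison. The backgrounds for that size, in either direction, were 0.235% and 1.23% for the genotypes at 12 and 29 weeks, and 0.326% and 1.33% for age in wild type and in 92Q. Of the 65 genes, 41 stayed within 1.1-fold in all 4 comparisons, against 53.5% of the 7659 genes compared in all 4, and 60 stayed within 1.2-fold, against 85.5%. As shares of the 65 these are 63.1% and 92.3%. Of the 65, 19 had a mean score of 100 or more and 17 one under 20, where 1 unit of the score already moves the ratio by a large step. Of the 7666 genes compared at 29 weeks, 582 had a mean score of 100 or more and 3406 one under 20. The shares within 1.1-fold and 1.2-fold were not matched for score level.

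**Figure D3:**
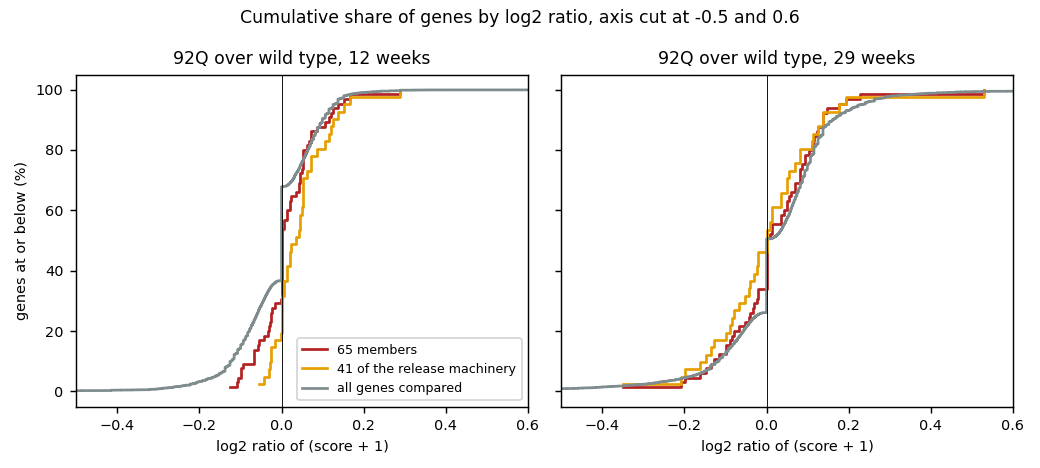
Cumulative share of genes (%) at or below each log2 ratio of (score + 1), 92Q over wild type, at 12 weeks (left) and 29 weeks (right), for the 65 genes, the 41 of the release machinery and all genes compared; the steps at 0 are genes with equal rounded scores. The release machinery line lies right of the line of all genes at 12 weeks (median 0.04 against 0.00), and at 29 weeks both medians are 0.00.

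Differences between the ages were also small. These comparisons use the same 4 columns as the genotype comparisons and are not separate evidence. From 12 to 29 weeks in 92Q, 2 of the 65 genes were higher past 1.2-fold (background 5.35%) and 3 were lower (background 3.94%). The 2 higher were Syngr2 and Syn3, both at 12 or less. The 3 lower were Syt7 (90 at 29 weeks, 112 at 12 weeks), Syt12 (26 and 32) and Sv2c (8 and 10). Syngr2 and Syn3 reached the 10 that a row requires in 29-week 92Q alone, and Sv2c in 12-week 92Q alone. That fixed the direction of these 3 genes with age in 92Q. Without the 4 genes that reached 10 in 92Q alone, 0 were higher and 2 were lower. In wild type 0 genes were 1.2-fold higher (background 2.3%) and 0 were 1.2-fold lower (background 3.54%). At 1.1-fold, 11 genes were lower with age in 92Q (background 11.5%), all 11 of the release machinery, and 4 were lower in wild type (background 16.6%). In 92Q these 11 included Snap25, Cplx2, Syt7, Rims1, Rab3c and Unc13a. At 1.1-fold, 5 were higher with age in 92Q (background 14.9%) and 5 in wild type (background 10.3%), and Vamp1 was among them in both. After upper quartile scaling, 8 were higher (background 17.9%) and 2 lower (background 10.3%) with age in wild type. Sv2b, the vesicle glycoprotein, was lower with age in both genotypes, at 59 in 92Q and 57 in wild type at 29 weeks against 67 in 92Q and 66 in wild type at 12 weeks. Whether the age differences of the genotypes themselves differ was not tested, since each rests on 1 value per group.

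Other presynaptic genes were followed in 5 lists with 87 measured genes. Past 1.2-fold, 1 of the 87 was higher at 12 weeks and 0 were lower, against 0.496% and 1.48% of the 7660 genes compared. At 29 weeks 3 were past it on the higher side and 4 on the lower, beside the same backgrounds of 3.63% and 3.01%. Of the 3 higher, Sh3gl3 reached 10 in 29-week 92Q alone, so its direction was fixed. Among the cofactors of SNAREs and release, Doc2b, a calcium-binding C2-domain protein of spontaneous and delayed release, was 23 in 92Q and 37 in wild type at 29 weeks (-0.66), and 35 in 92Q and 39 in wild type at 12 weeks. Doc2b is the 1 gene of these lists in the authors' deposited table of 99 genes. Rph3a, rabphilin, which binds Rab3, was 157 in 92Q and 189 in wild type at 29 weeks (-0.27), and 183 in 92Q and 179 in wild type at 12 weeks. Sncg, the gene of gamma-synuclein, was 21 in 92Q and 15 in wild type at 29 weeks (0.46), and 13 in 92Q and 10 in wild type at 12 weeks. The cofactor list of 17 had a median of 0.03 at 29 weeks.

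The remaining lists held close to wild type at 29 weeks. Of 17 active zone scaffold genes, Lin7b was the 1 past 1.2-fold, at 13 in 92Q and 16 in wild type, and Bsn, the scaffold bassoon, was 48 in 92Q and 54 in wild type (-0.17). The 26 genes of vesicle endocytosis had a median of 0.04, with Dnm1, the dynamin that pinches off vesicles, at 304 in both genotypes. Sh3gl3 was 10 in 92Q and 8 in wild type, and it reached 10 in that group alone. Among 18 vesicle transporters and other vesicle proteins, Vat1 was 37 in 92Q and 27 in wild type (0.44). Synpr, the vesicle protein synaptoporin, was 30 in 92Q and 25 in wild type (0.25), and Slc6a17, a vesicular amino acid transporter, was 83 in 92Q and 99 in wild type (-0.25). Of 9 presynaptic calcium channel genes, the channel subunit Cacna2d2 was 37 in 92Q and 45 in wild type (-0.28). Cacna1a, the pore subunit of the P/Q-type channel that opens at most cerebellar terminals, was 71 in 92Q and 79 in wild type (-0.15).

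**Figure D4:**
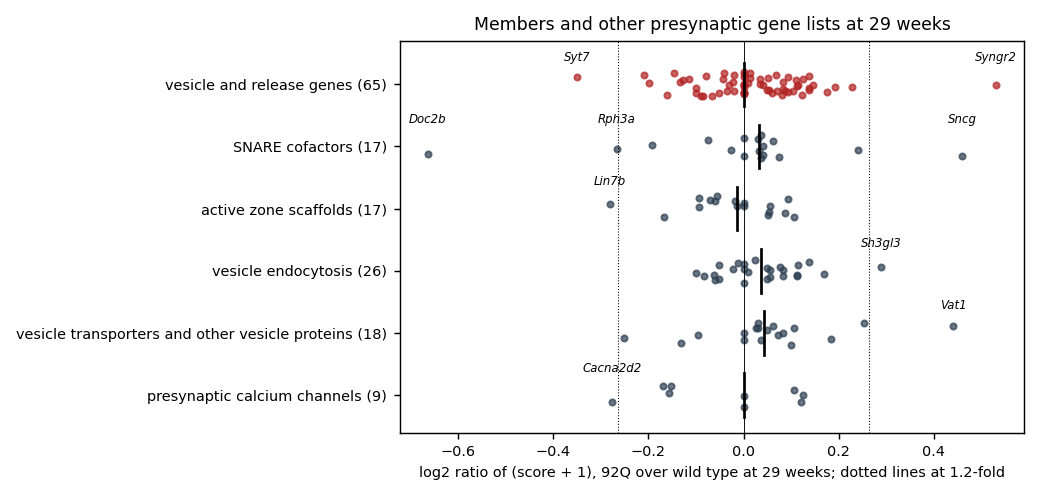
Log2 ratios of (score + 1), 92Q over wild type at 29 weeks, for the 65 vesicle and release genes and 5 lists of other presynaptic genes (rows, number measured in parentheses); each point is a gene, the vertical bar is the list's median and genes past 1.2-fold are named. Doc2b at -0.66 lies farthest left, and the medians of the 6 rows lie between -0.01 and 0.04.

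Cell type markers differed in the same 29-week comparison. The Purkinje marker sum was 4253 in 92Q and 6567 in wild type, lower in 17 of 19 measured genes, with a median log2 ratio of -0.61. The granule marker sum was 2999 in 92Q and 3230 in wild type, lower in 11 of 18 (median -0.06), and the inhibitory interneuron sum was 509 in 92Q and 584 in wild type, lower in 7 of 10 (median -0.14). The microglia sum was 458 in 92Q and 214 in wild type, higher in 13 of 13 (median 1.04), and the choroid plexus sum was 1473 in 92Q and 478 in wild type, higher in 6 of 6. Low microglia and choroid plexus genes that pass 10 in this group alone could have no other direction. The measured markers of these 5 cell types were above 0 in both genotypes at 29 weeks. In 12-week 92Q the choroid plexus markers Kl and Sostdc1 were listed at 0. The part of these markers in the lower scores of Syt7, Snap25 and Unc13c and in the higher scores of Vamp8 and Syngr2 was not tested.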

How the data were processed

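Total cerebellar RNA was sequenced in 12 libraries, 3 per group. Per the submitters' processing notes, the tools were Cuffdiff 1.3.0, Bowtie 0.12.7 and SAMtools 0.1.12a, and the build was mm10. The sources used here do not state what each tool did, the annotation, the filters or the scaling. The deposited score is a rounded value that the authors gave once per gene and condition. Column medians are all 22 and column sums differ by up to 3.45%. Each row reaches 10 in 1 or more conditions.

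Of 7684 rows, 17 had a number in place of a gene name and were left out. All 65 members were current symbols. Log2 ratios used a pseudocount of 1 for genes at 5 or more in one or both conditions; 1.2-fold was the main threshold, with 1.1 and 1.5 as others. Rounding ranges moved each score by 0.5. The fit over libraries could not be made, because the tables hold no values per library. Positions came from GENCODE M21. The script was checked on simulated data. Python 3.11.15, pandas 2.3.3 and numpy 2.4.6 were used.

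The members, roles and lists were chosen with earlier results of these data known. A gene listed in error was taken out of a list after its scores were seen. Some genes stand in the counts and are not reported here by name. Scores were printed for members past 1.2-fold in any comparison, the member with the highest mean score in each role, the 4 members whose genotype ratio differed most between ages, and examples of each role chosen after the scores were seen. For each pathway list up to 3 genes with the 29-week ratio farthest from 0 were named by rule, and Dnm1 and Cacna1a were chosen after their scores were seen. Marker lists are given as sums. The lists of unipolar brush cells, astrocytes, myelin, endothelium and blood had 29-week sums in 92Q against wild type of 396 and 430, 4202 and 3866, 4508 and 4207, 89 and 85, and 157 and 111. At 12 weeks the unipolar brush cell, endothelium and blood sums were 470 and 516, 89 and 90, and 117 and 116.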

Additional observations from a re-analysis of the deposited data

Results flagged for a closer look

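In 7 of the 63 genes reported by name the genotype log2 ratio pointed one way at 12 weeks and the other way at 29 weeks, both beyond what rounding allows. These differences were not tested, since each ratio rests on 1 value per group. How often other genes turned round in this way was not computed. The count therefore has no background and cannot be read as a trait of release genes. Vamp8 had the widest contrast, at 0.23 at 29 weeks and -0.11 at 12 weeks. Rab3c was -0.09 at 29 weeks and 0.06 at 12 weeks, and Rims2, an active zone scaffold gene, -0.08 and 0.05. Vamp2 was -0.02 at 29 weeks and 0.05 at 12 weeks, but 0.02 and 0.11 after quantile normalization, which ends the contrast. Syt1 was -0.04 at 29 weeks and 0.04 at 12 weeks. Sv2a was 0.07 at 29 weeks and -0.03 at 12 weeks, and Vamp1 was 0.01 and -0.01. Sv2a was 0.06 and 0.00 after quantile normalization, and Vamp1 had 1 sign at both ages after median ratio and upper quartile scaling, so 4 of the 7 (Rab3c, Rims2, Syt1 and Vamp8) kept opposite signs under the 3 other scalings. Rounding is the only error covered here, and the spread between libraries is unknown.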

How the results depend on the processing

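No paired analysis was possible because each condition has a single combined score, and for the same reason no replicate could be left out. Of 126 recomputed counts and medians, 96 stayed within 1.5 times the reported count or within the rounding uncertainty of the median (0.03). Of 400 recomputed ratios of the 20 members named by rule, 0 turned a difference past 1.2-fold round. This 0 could hardly have come out otherwise and is no support. Most of these ratios were not past 1.2-fold, a pseudocount cannot change a sign, and the median shift by a scaling was at most 0.0426. Of the 400, 113 moved beyond rounding and 10 changed sign, all 10 at 0.0811 or less as deposited; Cplx2 at 12 weeks was 0.02 and Syp with age in wild type 0.05 after quantile normalization, against -0.03 and -0.08 as deposited. The 12-week count of 1 higher gene was 0 with a pseudocount of 5, with a value of 10 or more in both conditions, after quantile normalization, over the whole rounding range, at 1.5-fold and without the 4 genes at 10 in 92Q alone. The 29-week count of 1 higher gene was 0 with a value of 10 or more in both conditions, at 1.5-fold and without those 4 genes, and the count of 1 lower gene (Syt7) was 0 at 1.5-fold. The 92Q age count of 2 higher genes was 1 with a pseudocount of 5 and after quantile normalization, and 0 with a value of 10 in both conditions, at 1.5-fold, over the rounding range and without those 4 genes. The count of 3 lower genes was 2 with a value of 10 in both conditions and without those 4 genes. It was 1 with a pseudocount of 5 and over the rounding range, and 0 at 1.5-fold. At 1.1-fold the higher and lower counts were 4 and 0 at 12 weeks, 7 and 5 at 29 weeks, 5 and 4 with age in wild type and 5 and 11 with age in 92Q. Medians of 0.00 moved to 0.0378 with age in wild type after upper quartile scaling and to 0.0334 with age in 92Q after quantile normalization. With the release machinery alone the medians were 0.0361 at 12 weeks and -0.0335 with age in 92Q. Rounding limits scores under about 20, and the depth is unknown.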
